A study of Mus musculus with 30 samples.

Results

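The interferon-gamma-induced GTPases were described here as 10 genes of 20844 measured, chosen by name: the guanylate-binding proteins Gbp2, Gbp3, Gbp5, Gbp6 and Gbp7, and the immunity-related GTPases Igtp, Irgm1, Irgm2, Iigp1 and Tgtp1. The names and not the measured values set the choice, but it was made with earlier results of these data known. For a gene with more than 1 row in the deposited table, the row with the highest mean was taken. The RNA came from mammary tumours of 30 mice. Polyoma middle T antigen (PyMT), an oncogene that drives mammary tumours, was carried into a cross with the MOLF strain and the offspring were crossed to FVB, so the animals are ((MOLF x PyMT) x FVB) backcross mice that differ in the segments they inherited. All 30 tumours form 1 group with 1 tumour for each animal, and the labels give no treatment, age, tumour stage or genotype of the single animals. The results are therefore relations across 30 animals, each called by its label number.

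Interferon-gamma, made mainly by T and NK cells, acts through its receptor and the kinases Jak1 and Jak2 to induce genes with GAS elements in their promoters, among them Irf1. Type I interferons act mainly through interferon-stimulated response elements (ISREs), and many genes answer to both. Guanylate-binding proteins and immunity-related GTPases are among the genes most strongly induced in mouse cells; they gather on membranes around intracellular pathogens, disrupt those membranes and feed autophagy and inflammasome pathways.

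The promoters of the members are shown because ISRE and GAS letters can be looked for in them. The RefSeq table of assembly GRCm38.p6 held a window from 250 bases before to 50 bases after the start of 8 of the 10 members, not Gbp6 or Iigp1. An ISRE was searched on both strands as GAAA, any 2 bases and GAAA again (on the other strand TTTC, any 2 bases and TTTC), and a GAS element as TTCNNNGAA, which reads alike on both strands. The ISRE letters were found in 8 of 8 members, against 3.44% of 32851 windows in the table, and the GAS letters in 5 of 8 (Gbp5, Gbp7, Igtp, Irgm2 and Tgtp1), against 8.30%. Both occurred in these 5, against 0.454% of windows. Gbp3 had a second window without either. Igtp, Irgm2 and Tgtp1 carry a GAS match next to an ISRE match, on chr11:58199499-58199543 (plus strand), chr11:58214890-58214934 (plus strand) and chr11:48992302-48992346 (minus strand). Gbp2 on chr3:142620592-142620625 (plus strand), Gbp3 on chr3:142559987-142560026 (plus strand) and Irgm1 on chr11:48871423-48871462 (minus strand) had ISRE matches alone, and those of Gbp3 and Irgm1 are 2 matches that overlap each other. Capitals mark the matches, and each line runs 5′ to 3′ along the gene.
Igtp: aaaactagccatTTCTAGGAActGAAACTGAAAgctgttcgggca
Irgm2: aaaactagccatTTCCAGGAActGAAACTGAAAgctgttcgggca
Tgtp1: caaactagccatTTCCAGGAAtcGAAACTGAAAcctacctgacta
Gbp2: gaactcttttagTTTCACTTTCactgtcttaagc
Gbp3: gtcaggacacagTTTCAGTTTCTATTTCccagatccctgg
Irgm1: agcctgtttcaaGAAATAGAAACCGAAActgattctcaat
The GAS and ISRE matches begin 45 and 34 bases before the start of Igtp, 75 and 64 bases before that of Irgm2, and 88 and 77 bases before that of Tgtp1. Of 7 other genes of the same families with a window, 4 held the ISRE letters and 2 the GAS letters. A match describes the letters only, and which interferon acts through it was not tested.

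Gene levels were given as RPKM, in which reads are divided by the length of the transcript and the size of the library, so that levels of different genes can be compared. Sequencing depth, as estimated from the spacing of the smallest values, was 42.6 to 61.9 M reads in 16 shallow libraries and 117 to 197 M reads in 14 deep ones. The insert size in the labels averaged 261 ± 12.3 (SD, n = 16) in shallow and 233 ± 14.7 (SD, n = 14) in deep libraries. Luminal epithelial markers were high in each tumour: the 9 genes together summed to between 1554 and 3394 RPKM and none was at 0 in any tumour.

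All 10 GTPases had reads in all 30 tumours, with means from 0.758 to 13.3 RPKM. Irgm1, a regulatory GTPase that keeps effector members inactive on the cell's own membranes and also acts in autophagy, had the highest mean, 13.3 ± 4.78 RPKM (SD, n = 30). Gbp2, a guanylate-binding protein that coats pathogen vacuoles, followed at 10.7 ± 4.54 RPKM, and Igtp, a second regulatory GTPase, at 6.69 ± 4.42 RPKM. Gbp3 averaged 5.08 ± 4.01 RPKM and Iigp1, an effector that loads onto the vacuole membrane, 4.75 ± 5.12 RPKM. These were 5 of the 8 members whose mean reached 1 RPKM. Irgm2, the remaining regulatory GTPase, averaged 3.29 ± 1.86 RPKM, Gbp7, linked to assembly of the NADPH oxidase, 3.15 ± 1.67 RPKM, and Gbp6 1.17 ± 1.03 RPKM. Tgtp1, an effector, averaged 0.918 ± 0.832 RPKM and Gbp5, known for a role in inflammasome assembly, 0.758 ± 0.549 RPKM, so that both missed the minimum of 1 RPKM used for testing.

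Neighbours in this order were compared within tumours on log2(RPKM + 1) by permutation of signs, two-sided, adjusted over the 9 pairs. Igtp exceeded Gbp3 in 27 of 30 tumours (adjusted p = 3e-05) and Gbp7 exceeded Gbp6 in 30 of 30 (adjusted p = 3e-05). The differences of Gbp3 from Iigp1 (adjusted p = 0.0559), Irgm2 from Gbp7 (0.589), Gbp6 from Tgtp1 (0.0626) and Tgtp1 from Gbp5 (0.196) did not pass, and the other 3 pairs did. Tgtp1 cannot be told from its near-identical neighbour Tgtp2, whose values differed from it by at most 0.011 RPKM in any tumour, and Gbp6 followed its close relative Gbp10 (r = 0.951 over 30 tumours), so both are uncertain as single genes.

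**Figure D1:**
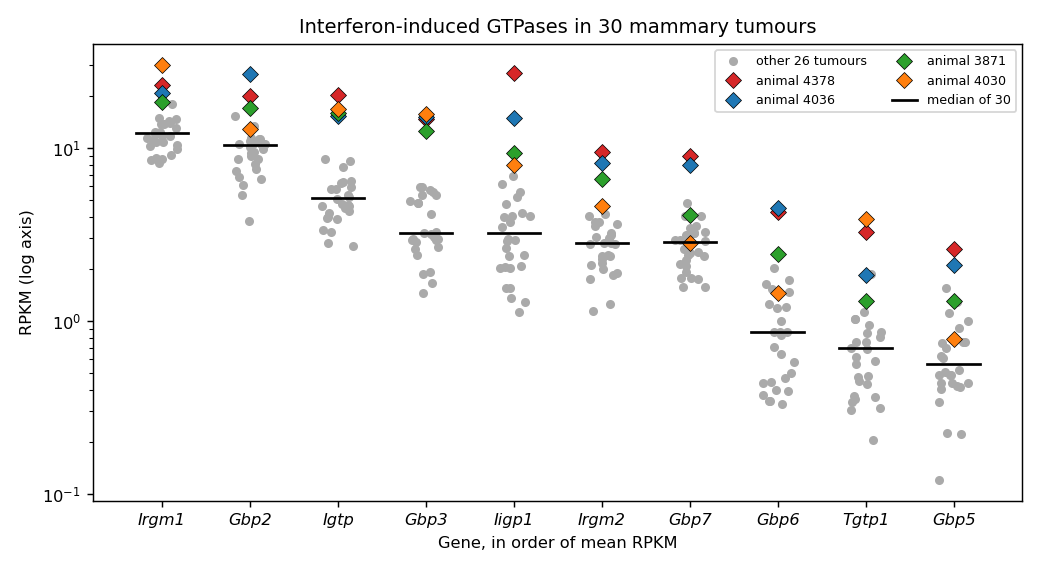
RPKM (log axis) of the 10 GTPase genes in each of 30 tumours, ordered by mean; coloured diamonds are the tumours of animals 4378, 4036, 3871 and 4030, grey points the other 26 tumours and black lines the medians of 30. For Gbp3, Igtp, Irgm1, Irgm2 and Iigp1 the 4 diamonds lie above all other points, and for Gbp7 the diamond of animal 4030 (2.82 RPKM) lies at the middle of the points.

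The tumours differed widely in these genes. Gbp3 ranged from 1.44 RPKM in animal 4262 through a median of 3.24 to 15.7 RPKM in animal 4030. Igtp ranged from 2.71 RPKM in animal 4438 through a median of 5.14 to 20.1 RPKM in animal 4378. In both genes 4 tumours, of animals 3871, 4030, 4036 and 4378, stood apart from the rest: the lowest of them had 12.5 RPKM of Gbp3 and 15.2 RPKM of Igtp, while the highest of the other 26 had 5.97 and 8.67 RPKM. Iigp1 ranged from 1.13 RPKM in animal 4262 through a median of 3.24 to 27.2 RPKM in animal 4378, a ratio of 24.1 that was the widest of the 10 genes. Irgm2 ranged from 1.14 RPKM in animal 4150 through a median of 2.81 to 9.45 RPKM in animal 4378. Irgm1 ranged from 8.19 RPKM in animal 4438 through a median of 12.2 to 30.3 RPKM in animal 4030, a ratio of 3.70 that was the narrowest. In Irgm1, Irgm2 and Iigp1 the same 4 tumours were again above the other 26, but the gap was small: the lowest of the 4 and the highest of the 26 were 18.3 and 17.9 RPKM for Irgm1, 4.63 and 4.13 RPKM for Irgm2, and 7.96 and 6.86 RPKM for Iigp1. These 4 tumours were singled out after their values had been seen, and 3 of them (3871, 4030 and 4036) are deep libraries.

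In the other 5 members the 4 tumours overlapped the rest. Gbp2 ranged from 3.77 RPKM in animal 4150 through a median of 10.3 to 26.9 RPKM in animal 4036. Gbp7 ranged from 1.57 RPKM in animal 4164 through a median of 2.85 to 8.96 RPKM in animal 4378. In both, animals 4378 and 4036 held the top 2 places, while animal 4030 was number 6 for Gbp2 and number 16 for Gbp7. Gbp6 ranged from 0.332 RPKM in animal 4139 through a median of 0.861 to 4.52 RPKM in animal 4036. Gbp5 ranged from 0.12 RPKM in animal 4438 through a median of 0.565 to 2.59 RPKM in animal 4378. Animal 4030 was number 9 for both of these genes. Tgtp1 ranged from 0.205 RPKM in animal 4438 through a median of 0.695 to 3.88 RPKM in animal 4030, which here was the highest of all. The SD of log2(RPKM + 1) was between 0.39 (Gbp5) and 0.84 (Iigp1) for the 10 members, above the median of 0.27 of the 13610 genes tested in each case.

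**Figure D2:**
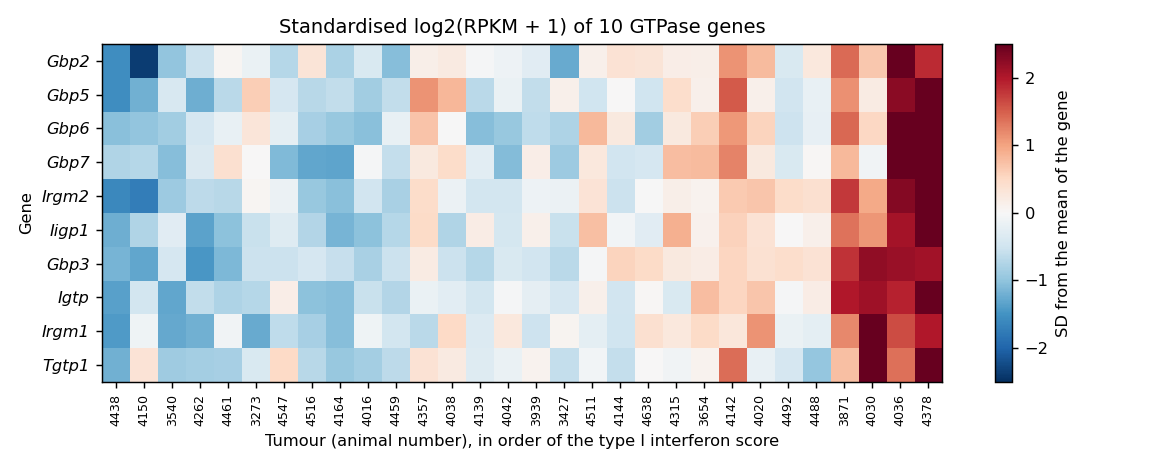
Standardised log2(RPKM + 1) of the 10 GTPase genes (rows) in 30 tumours (columns, ordered by the type I interferon score from lowest to highest); red is above and blue below the mean of the gene, in SD. Animals 3871, 4030, 4036 and 4378 form the right edge, where the column of animal 4030 is dark in Gbp3, Igtp, Irgm1 and Tgtp1 and pale in Gbp5, Gbp6 and Gbp7.

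The members rose and fell together. Because 4 tumours stood apart, the 45 pairs were also correlated over the other 26: r then ran from 0.318 (Gbp6 with Irgm1) to 0.770 (Igtp with Irgm2), with a median of 0.574, and 40 of 45 pairs passed (permutation test, two-sided, adjusted over 45 pairs). With all 30 tumours r ran from 0.590 (Gbp2 with Tgtp1) to 0.902 (Irgm2 with Iigp1), with a median of 0.795. Spearman's rho ran from 0.449 to 0.873, and 45 of 45 pairs passed by r and by rho (adjusted p of at most 0.00096 for r in this permutation test, where 1e-05 is the smallest unadjusted p possible). With the 2 most extreme tumours of the first gene of a pair left out, r was 0.392 to 0.884. Within the 14 deep libraries 42 pairs passed and within the 16 shallow ones 45. How often pairs of other genes pass the same test was not computed, so these counts have no background. The 12 pairs on the same chromosome had a median r of 0.801 and the 33 pairs on different chromosomes 0.795, a difference that was not tested; Gbp2, Gbp3, Gbp5 and Gbp7 lie on chromosome 3 and Igtp, Irgm1, Irgm2 and Tgtp1 on chromosome 11.

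Fewer pairs remained correlated once the level of type I interferon genes was fitted. After each gene was regressed on the type I interferon score, 17 of 45 pairs passed, with a median r of 0.267 and a range from -0.249 (Gbp3 with Gbp7) to 0.715 (Gbp6 with Gbp7). Of these 17 pairs, 14 were among the 15 that Gbp2, Gbp5, Gbp6, Gbp7, Irgm2 and Iigp1 form with each other, and 3 were the 3 pairs of Igtp, Irgm1 and Tgtp1. None of the 9 pairs with Gbp3 passed (residual r from -0.249 to 0.272). These groups of genes were drawn after the values had been seen. Igtp, Irgm1 and Tgtp1 all lie on chromosome 11, while the larger group is spread over chromosomes 3, 5, 11 and 18. After the regression the 12 pairs on the same chromosome had a median r of 0.401, and 6 of them passed. The 33 pairs on different chromosomes had a median of 0.238, and 11 passed. This difference was not tested.

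**Figure D3:**
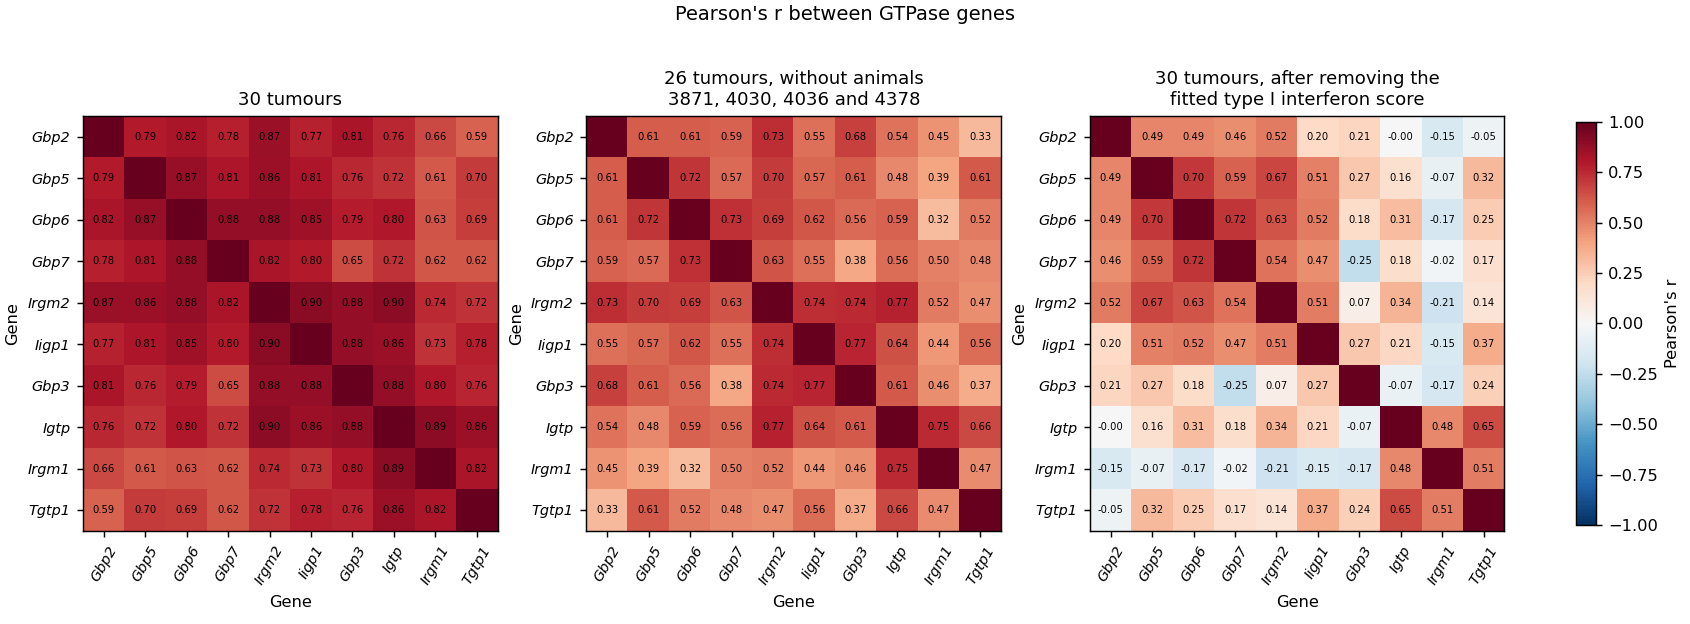
Pearson's r of log2(RPKM + 1) between each pair of the 10 GTPase genes over 30 tumours (left), over 26 tumours without animals 3871, 4030, 4036 and 4378 (middle), and over 30 tumours after regression on the type I interferon score (right); red is positive and blue negative. The median r is 0.795 at the left, 0.574 in the middle and 0.267 at the right, where Igtp, Irgm1 and Tgtp1 keep values from 0.480 to 0.654 with each other.

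The members rose with genes of the type I interferon response. The type I interferon score of a tumour was the mean standardised level of 22 genes such as Isg15, Ifit3, Mx1 and Oas2, none of which is a member, in units of its SD. All 8 members that could be tested rose with it, against 0.81% of 13588 genes that rose (limma, Benjamini-Hochberg over all genes). Iigp1 rose by 0.74 ± 0.07 (SE) log2 units per SD of the score (adjusted p = 7.97e-09), Gbp3 by 0.72 ± 0.04 (adjusted p = 3.97e-14) and Igtp by 0.60 ± 0.05 (adjusted p = 1.95e-11). The smallest slopes were those of Irgm1, 0.35 ± 0.04, and Gbp7, 0.34 ± 0.06 (adjusted p = 0.000473). Gbp2, Gbp6 and Irgm2 lay between, at 0.41 ± 0.05, 0.43 ± 0.06 and 0.47 ± 0.04. The median slope of the 8 was 0.45, against -0.01 over all genes tested. With no minimum level 10 of 10 members rose, with slopes of 0.28 ± 0.05 for Gbp5 (adjusted p = 0.000549) and 0.36 ± 0.06 for Tgtp1 (adjusted p = 0.000275). Without the 4 tumours that stood apart, 6 of 8 members rose, while 0.294% of genes passed in either direction. Gbp3 then had a slope of 0.39 ± 0.05, and Gbp6 (adjusted p = 0.371) and Gbp7 (adjusted p = 0.328) no longer passed. In the 14 deep libraries alone 4 of 8 passed, while 0.309% of all genes did, and the median slope of the 8 was 0.44.

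**Figure D4:**
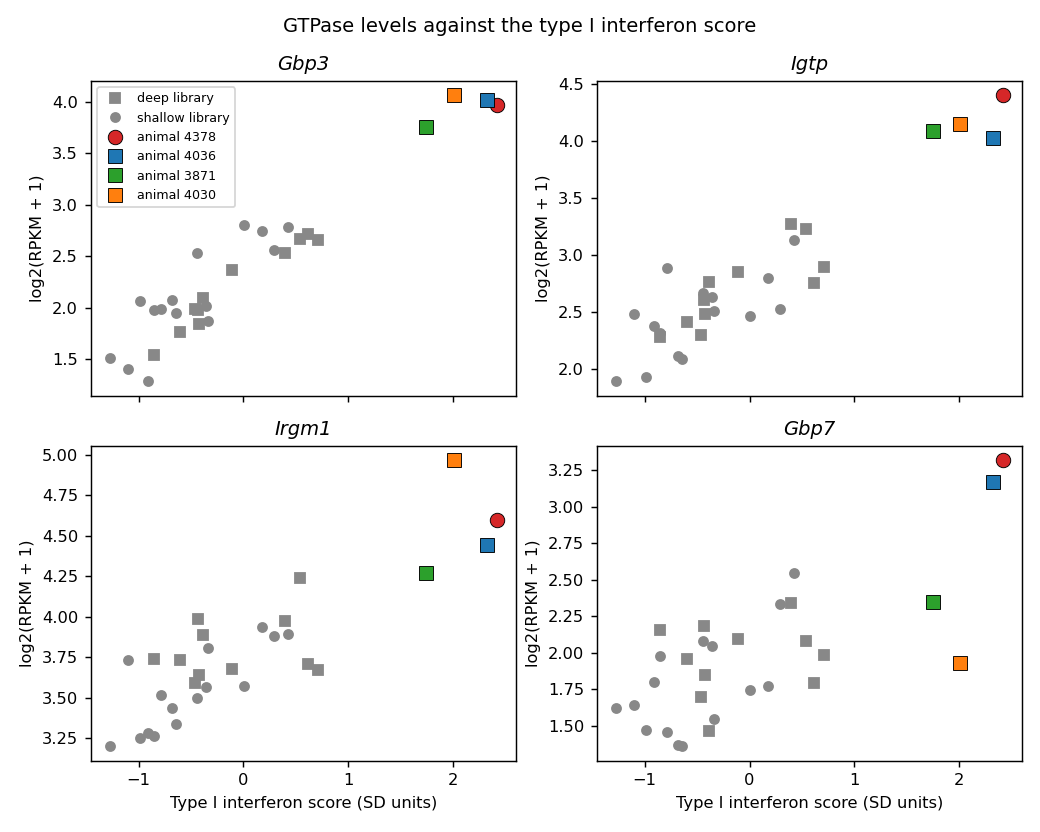
log2(RPKM + 1) of Gbp3, Igtp, Irgm1 and Gbp7 against the type I interferon score (in SD) in 30 tumours; squares are deep and circles shallow libraries, and the tumours of animals 4378, 4036, 3871 and 4030 are coloured. The 4 coloured tumours have scores from 1.74 to 2.42 and the highest levels of Gbp3, Igtp and Irgm1, while Gbp7 of animal 4030 lies among the other tumours.

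Relatives and neighbours in the pathway moved unevenly with the same score, with which 0.81% of 13588 genes rose. Of 15 other genes of the 2 GTPase families 4 were tested, and 3 rose: Ifi47 by 0.50 ± 0.10, Gbp9 by 0.48 ± 0.10 and Gbp4 by 0.31 ± 0.07; Irgq, an atypical family member, had a slope of 0.01 ± 0.05. Of 16 genes of interferon-gamma signalling, 3 rose, among them Stat2 by 0.28 ± 0.03 and Irf9 by 0.27 ± 0.03. The kinase Jak1 (0.11 ± 0.07) and the receptor chains Ifngr1 (0.04 ± 0.05) and Ifngr2 (-0.04 ± 0.04) did not pass. Of 14 other interferon-gamma-induced genes, 7 rose. They include B2m, the light chain of MHC class I (0.34 ± 0.09), the peptide transporter Tap1 (0.35 ± 0.03), the immunoproteasome subunit Psmb8 (0.38 ± 0.06) and Tapbp (0.24 ± 0.04), while the proteasome activators Psme1 and Psme2 had slopes of 0.10 ± 0.05 and 0.12 ± 0.05 and did not pass. Of 18 genes of autophagy and inflammasomes, through which these GTPases act, 0 passed (limma) and their median slope was 0.01. That count is near the share of all genes, of which 0.92% passed in either direction. Gabarap had a slope of -0.02 ± 0.05 and Sqstm1 0.05 ± 0.04.

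The transcription factors Irf1 and Irf9 and the receptor chain Ifngr1 were each correlated with the 10 members over the 30 tumours (permutation test, two-sided, adjusted over a family of 40 pairs). Irf9 passed with 10 of 10 members by r (0.617 to 0.791) and with 7 by rho. Irf1 ranged only from 17.05 to 32.76 RPKM and passed with 9 of 10, with r from 0.347 (Tgtp1) to 0.667 (Gbp2). Ifngr1 passed by r with Gbp5 alone (r = 0.473, rho = 0.449, permutation test, adjusted p = 0.0111 for r), and its other r values ran from 0.099 to 0.358; by rho it passed with Gbp5 and with Iigp1 (rho = 0.452, permutation test, adjusted p = 0.0201). Over the 26 tumours without those that stood apart, Irf1 passed with 10 members (r 0.443 to 0.657), Irf9 with 4 and Ifngr1 with 2. With the 2 most extreme tumours of the regulator left out, r was 0.200 to 0.543 for Irf1, 0.358 to 0.674 for Irf9 and 0.106 to 0.358 for Ifngr1. Within the deep libraries r was 0.258 to 0.705 for Irf1, 0.471 to 0.893 for Irf9 and 0.187 to 0.560 for Ifngr1. Within the shallow ones the ranges were 0.382 to 0.595, 0.539 to 0.923 and 0.087 to 0.515. The share of all genes that would pass with each regulator was not computed, so these counts have no background. Ifng itself was listed at 0 in 19 of 30 tumours and reached 0.123 RPKM at most, in animal 4142.

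Genes outside the 10 were ranked by r with the mean standardised profile of the members over 30 tumours, as a description among 13602 genes. Among the 10 most alike were Ifit3 (r = 0.941), Ifit3b (0.923), Tap1 (0.910), Tor3a (0.903), Oasl2 (0.903), Ifit1 (0.899), Herc6 (0.895), Parp14 (0.888) and Oas2 (0.883). Over the 26 tumours these r values lay between 0.577 (Oas2) and 0.817 (Tap1). Single members had different closest genes. Gbp3 and Igtp were most like Oasl2 (0.957 and 0.908), Irgm1 was most like Isg15 (0.890), Tgtp1 most like Ifi47 (0.895) and Iigp1 most like Cmpk2 (0.882). Gbp5 was most like the chemokine gene Cxcl10 (0.898), Gbp6 most like Tap1 (0.857), Gbp7 most like Gbp4 (0.839), Gbp2 most like Ube2l6 (0.864) and Irgm2 most like Parp14 (0.923). For these pairs r over the 26 tumours lay between 0.613 (Gbp7 with Gbp4) and 0.884 (Gbp3 with Oasl2), with 0.689 for Irgm1 with Isg15.

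High tumours differed in their other interferon and immune genes. Animal 4378 was number 1 of 30 both for the T and NK cell score (3.23) and for the type I interferon score (2.42), and number 1 or 2 in each member except Gbp3, where it was number 3. Its B cell markers were also the highest, 117 RPKM summed over 7 genes against a median of 11.4. Animal 4030 was number 3 for the type I interferon score (2.01) but number 26 for the T and NK cell score (-0.93) and number 22 for MHC class II. It had the highest Gbp3, Irgm1 and Tgtp1, and also the highest Isg15 (52.5 RPKM), Oasl2 (28.01 RPKM) and Ifi47 (25.8 RPKM). The same tumour had the lowest Ciita of all 30, the master regulator of MHC class II genes, at 1.39 RPKM. It was number 24 for Nlrc5, the regulator of MHC class I genes, and its Cxcl9 (0.293 RPKM) and Cxcl10 (0.754 RPKM) were near the medians of 0.336 and 0.751 RPKM. Animal 4036 had the lowest proliferation score (-2.31) and luminal marker sum, and the highest sums of stroma, adipocyte and endothelial markers.

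T and NK cell markers, of cells that can make interferon-gamma, moved with fewer members. Gbp7 rose by 0.31 ± 0.06 log2 units per SD of the T and NK cell score (adjusted p = 0.00537) and Gbp6 by 0.33 ± 0.08 (adjusted p = 0.0233), so 2 of 8 tested members rose, against 1.6% of 13601 genes (limma, Benjamini-Hochberg). The other 6 had positive slopes that missed the threshold after adjustment, from 0.17 ± 0.07 for Irgm1 to 0.42 ± 0.13 for Iigp1 (adjusted p = 0.0974); the unadjusted p of all 8 was below 0.05. The median slope of the 8 was 0.32, against 0.01 over all genes tested. The score rested on 9 of 22 marker genes: Cd3d, Cd3e, Cd3g, Cd247, Cd4, Lck, Zap70, Nkg7 and Cd27. The other 13 had a mean below 1 RPKM, among them Cd8a, Cd8b1, Gzma, Gzmb, Prf1, Klrk1, Klrd1, Ncr1, Tbx21 and Eomes. The score therefore held no Cd8 gene and few genes of NK and cytotoxic cells. All 22 summed to between 22.3 and 124 RPKM, with a median of 38.0, and only Cd2 and Gzma were at 0, each in 1 tumour. B cell markers moved with the same score: 5 of 5 tested rose, with a median slope of 0.65, and their part in the members' slopes was not tested. In bulk tissue, fewer cells of a type and less RNA per cell cannot be told apart. The result rested on animal 4378: without it 0 of 8 members passed, and Gbp7 had a slope of 0.20 ± 0.06 (adjusted p = 0.103, limma). The median slope of the 8 was then 0.18. Of all genes 1.99% passed in either direction without this animal, against 1.68% with all tumours. Without animal 4030, 5 members passed (1.55% of all genes). Adjusted for depth class, 5 passed (Gbp2, Gbp6, Gbp7, Igtp and Irgm2), with 1.67% of all genes. In shallow libraries 7 passed (0.846% of all genes in either direction), with a median slope of 0.42. In shallow libraries without animal 4378, 0 passed, but so few genes passed at all (12, or 0.0882%) that the count says little; the median slope was 0.23 and 7 of 8 had an unadjusted p below 0.05 (limma). In deep libraries 0 passed (2.4% of all genes), with a median slope of 0.18 and an unadjusted p below 0.05 for 2 of 8 (limma). The difference between the slopes in deep and shallow libraries did not pass for any member (adjusted p of at least 0.586, limma; 0% of 13610 genes passed).

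When both scores were fitted together, 8 of 8 members rose with the type I interferon score and 0 of 8 with the T and NK cell score, against 0.707% and 1.64% of genes that rose (limma). Gbp3 then had slopes of 0.72 ± 0.05 on the type I score and 0.00 ± 0.05 on the T and NK score. Gbp7 had the nearest values of the 8 on the 2 scores, 0.25 ± 0.06 (adjusted p = 0.02) and 0.19 ± 0.06 (adjusted p = 0.0724, limma). The type I score rested on 22 genes and the T and NK cell score on 9, and the effect of this on the joint fit was not tested. The joint fit was not repeated without the tumours that stood apart.

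Members also rose with MHC class II genes and fell with proliferation genes, and so did a wider share of all genes than with the scores above. With the MHC class II score, from 7 genes that present antigen, 6 of 8 rose, against 9.91% of 13603 genes (limma): Iigp1 by 0.53 ± 0.12 (adjusted p = 0.00208), Gbp3 by 0.43 ± 0.11, Irgm2 by 0.36 ± 0.07, Gbp2 by 0.33 ± 0.07, Gbp6 by 0.33 ± 0.08 and Gbp7 by 0.24 ± 0.07. Igtp (0.29 ± 0.10, adjusted p = 0.051) and Irgm1 (0.13 ± 0.07, adjusted p = 0.208) did not pass. The median slope was 0.33, against 0.00 over all genes. Without the 4 tumours that stood apart 4 passed, with a median slope of 0.21, while 14.8% of all genes passed in either direction. In deep libraries the median slope was 0.34 and 7 of 8 had an unadjusted p below 0.05 (limma), but only 2 of 13603 genes passed after adjustment, none of them a member. With the same score, 12 of 12 stroma genes, 10 of 10 endothelial genes and 10 of 17 macrophage genes rose and 19 of 22 proliferation genes fell; the part of these in the members' slopes was not tested.

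With the proliferation score, from 22 genes of the cell cycle, 6 of 8 members fell, against 7.15% of 13588 genes that fell (limma). Iigp1 fell by 0.44 ± 0.13 log2 units per SD (adjusted p = 0.0195), Gbp3 by 0.34 ± 0.12 and Gbp2 by 0.29 ± 0.07, while Igtp (-0.24 ± 0.11, adjusted p = 0.132) and Irgm1 (-0.16 ± 0.07, adjusted p = 0.115) did not pass. The median slope was -0.27, against 0.00 over all genes. Animal 4036, with the lowest score and a luminal marker sum of 1554 RPKM against a median of 2366, decided the count: without it 0 of 8 passed. The median slope was then -0.19, and 9.10% of all genes passed in either direction, against 16.3% with all tumours. Without the 4 tumours that stood apart 0 passed, with a median slope of -0.13 (9.71% of all genes). In deep libraries 1 passed and in shallow libraries 0, while 2.29% and 3.50% of all genes did; the median slopes there were -0.29 and -0.24. With the same score 7 of 7 MHC class II, 8 of 12 stroma and 7 of 10 endothelial genes also fell, and their part in the members' slopes was not tested.

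No member passed with the macrophage score, from 17 marker genes (0 of 8, against 9.55% of 13593 genes, limma; unadjusted p below 0.05 for 3), a count near the share of all genes. The largest slope was that of Iigp1, 0.28 ± 0.14 (adjusted p = 0.215), and the slopes of all 8 were positive, with a median of 0.22, against -0.01 over all genes. Adjusted for depth class, Gbp2 (0.25 ± 0.08, adjusted p = 0.0307) and Irgm2 (0.26 ± 0.08, adjusted p = 0.0364) passed (limma), as did 9.25% of all genes. Without animal 4020 or 4378, 2 passed, with 10.8% of all genes in each case. Without 3427 or 4547, 1 passed, with 8.50% and 11.4% of all genes. The positive slopes leaned on animal 4036, number 1 for this score. With it left out, 0 passed (5.20% of all genes), the median slope was 0.11 and 7 of 8 were positive. The unadjusted p was then below 0.05 for 0 of 8 (limma). Leaving out the 2 tumours farthest from the median (4036 and 4438) gave a median slope of 0.07, with 5 of 8 positive.

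**Figure D5:**
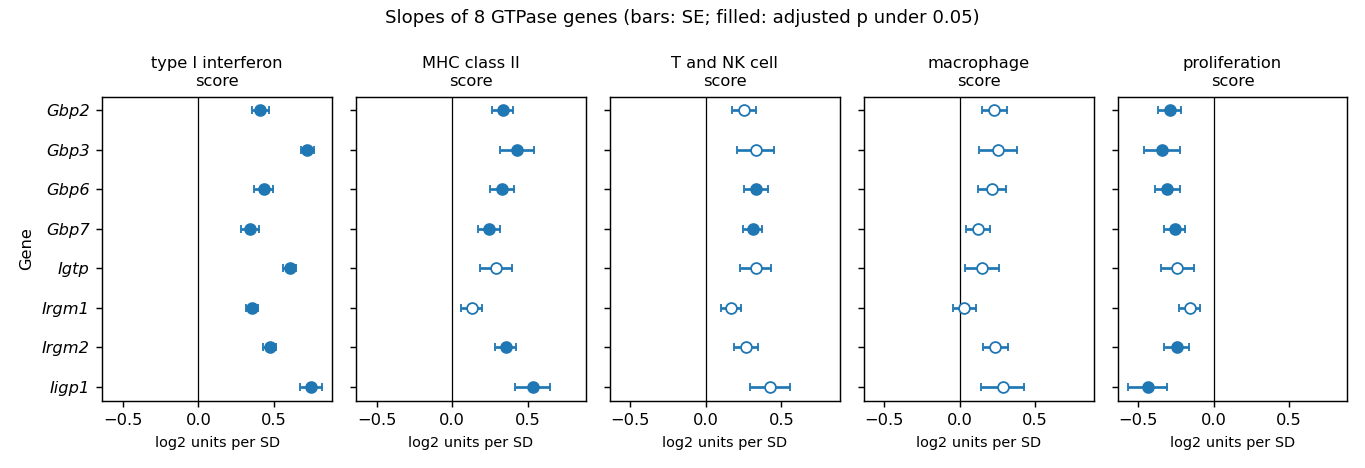
Slopes of the 8 tested GTPase genes on 5 scores, in log2 units per SD of the score (x axis), with bars of 1 SE; filled points have an adjusted p below 0.05. All 8 points are filled for the type I interferon score, 6 for MHC class II and proliferation, 2 for T and NK cells and 0 for macrophages.

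The technical measures were set against the same genes. With the insert size in the labels 0 of 8 members passed, against 0.0367% of 13610 genes (limma, with an unadjusted p below 0.05 for Igtp and Irgm1). The slopes of all 8 were negative, with a median of -0.15, against -0.004 over all genes. This median was -0.08 with the depth class as a covariate and -0.07 without animal 3871. In shallow libraries it was 0.02, with 4 of 8 slopes positive, and in deep libraries -0.17. Between deep and shallow libraries 0 of 8 passed, against 1.24% of genes (limma). All 8 had a higher mean in deep libraries, by 0.18 ± 0.19 (Gbp6) to 0.43 ± 0.22 (Igtp) log2 units. The smallest adjusted p was that of Irgm1, with a mean log2(RPKM + 1) of 3.97 in deep and 3.61 in shallow libraries, a difference of 0.36 ± 0.13 (adjusted p = 0.276).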

How the data were processed

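Poly-A selected RNA of 30 tumours was sequenced. The authors deposited RPKM values, reads normalized to transcript length and to library size before deposit, in 1 table with a column per animal; this unit is inferred from how low values step with transcript length, and no header names it. Per the submitters' processing notes CASAVA 1.7.0 was used; build, annotation and aligner settings: not given in the sources used here.

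Of 27902 rows, 26490 were named with a RefSeq gene table (GRCm38.p6) and 154 with GENCODE vM21, while 1258 unnamed rows (1.94% of summed RPKM) and 697 small RNA rows were left out. Depth was recovered from steps between low values (66.9 to 74.2% within 0.12 of a whole read, against 24% by chance), too few whole values for a count test; the deep and shallow classes were defined after the file had been seen. Each score was regressed on with limma 3.58.1 in R 4.3.3 (empirical Bayes with trend, two-sided) on log2(RPKM + 1), a scale that shrinks changes of low genes, keeping genes whose mean reached 1 RPKM, with Benjamini-Hochberg adjustment and a threshold of 0.05. Correlations used 100000 permutations in Python 3.11.15 (pandas 2.3.3, scipy 1.17.1, numpy 2.4.6), and figures matplotlib 3.10.9. Each animal gave 1 library, so each error and p-value reflects differences among animals together with technical variation.

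The members, lists, tests and alternatives were chosen with earlier results of these data known. The text names all 10 members, a selection of list members with the highest mean or the largest and smallest slope, genes among the 10 most like the mean profile and the 1 most like each member, besides regulators; 1 of the 4 regulators in the family of 40 pairs is not reported here, and the genes given for single tumours were named after their values had been seen. In simulated data for the T and NK cell score (13610 genes), 8% of genes with a slope of 0.1 were recovered, 70% at 0.25, 94% at 0.5 and 98% at 1, with 4.26% false calls. Alternatives were a pseudocount of 0.1, no minimum level or one of 5 RPKM, quantile normalization, depth class as a covariate or deep or shallow libraries alone, rank-based scores, a second score as a covariate, the sum of a gene's rows, and leaving out tumours.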

Additional observations from a re-analysis of the deposited data

How the results depend on the processing

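Counts below are of 8 tested members unless another number is given. For the T and NK cell score 2 members passed; the count was 4 of 10 with no minimum level, 0 of 4 with a minimum of 5 RPKM, 1 with quantile normalization, 5 with the depth class as a covariate, 7 in shallow libraries, and 0 in deep libraries, without the 2 tumours farthest from the median (4142 and 4378) and with the type I interferon score as a covariate, where the slope of Gbp3 turned to -0.00031. For the type I interferon score 8 passed, with 4 of 4 at a minimum of 5 RPKM and 4 in deep libraries. For MHC class II 6 passed, with 2 of 4 at that minimum and 0 in deep libraries, where 2 of 13603 genes passed and the median slope was 0.34 (0.33 with all tumours). For the macrophage score 0 passed, and 2 with the depth class as a covariate. For proliferation 6 passed, with 2 of 4 at the minimum of 5 RPKM, 3 with quantile normalization, 1 in deep and 0 in shallow libraries, and 0 without the 2 farthest tumours (4036 and 4459). After regression on the type I score, 17 of 45 pairs of members and 3 of 40 pairs with regulators passed. Without that regression 30 of 40 pairs with regulators passed in all tumours and 19 of 40 in deep libraries. Alternatives chosen after seeing the data gave 0 for T and NK cells and 0 for proliferation without the 4 tumours that stood apart, and 0 for T and NK cells in shallow libraries without animal 4378. The deep and shallow subsets hold fewer samples, and the minimum of 5 RPKM tests fewer genes; for the rest the cause was not tested.

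Leaving out each animal in turn gave 0 to 5 members for T and NK cells (0 without 4378, 5 without 4030), 8 to 8 for type I interferon, 5 to 7 for MHC class II, 0 to 2 for macrophages, 0 to 8 for proliferation (0 without 4036), 0 to 0 for insert size, 45 to 45 pairs of members and 28 to 31 pairs with regulators. The count of all genes that passed also moved with the setting, from 40 to 204 for the type I score (76 without animal 4036 and 278 without animal 4030) and from 12 to 761 for T and NK cells. No paired analysis was possible because the 30 tumours form 1 group.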

Other observations

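Animal 4142 had a T and NK cell score of 2.41 with a type I interferon score of 0.42, and its tumour was between number 3 and number 9 of 30 for each of the 10 GTPases. It held number 3 for Gbp5, Gbp7 and Tgtp1, number 4 for Gbp2 and Gbp6, and number 9 for Irgm1. The same tumour had the highest Cxcl10 (3.93 RPKM), Ifng (0.123 RPKM), Ifngr1 (38.2 RPKM) and Gbp2b (3.25 RPKM) of the 30. Its Cxcl10 barely exceeded that of animal 4036 (3.92 RPKM), and Ifng was near the floor, at 0 in 19 of 30 tumours. The tumour of animal 4142 was chosen for description after its values had been seen.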
